A study of Mus musculus with 6 samples.

Results

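The 36 genes described here encode enzymes of glucose use: glycolysis, the pentose phosphate pathway and glycogen metabolism, together with their main switches and 3 genes of the hypoxia pathway. They are a list of gene names that no measured value defines, and all 36 were found among 56748 genes in the deposited tables. RNA came from the mouse uterus at 1600 h on day 4 of pregnancy, a short time ahead of embryo attachment. There were 3 libraries labelled Zip10 cKO (genotype label Zip10 conditional knockout), in which the zinc importer gene Slc39a10 was meant to be removed from the uterus, and 3 Control libraries with the genotype label WT. Whether Control mice carried floxed alleles is not said in the labels. The labels name neither the Cre driver and the deleted exons nor the age and strain of the mice. They do not say that each library is a separate animal, so the p-values cover the spread among 6 libraries, which may be technical.

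Glycolysis splits glucose to pyruvate in a chain of steps, many of them run by a small family of isozymes, and lactate dehydrogenase turns pyruvate to lactate. The pentose phosphate pathway branches off early and supplies NADPH and ribose. Glycogen is the stored form of glucose, built by glycogen synthase and branching enzyme and broken down by glycogen phosphorylase, and the uterine lining is known to store it. Decidualizing stroma in the mouse is known for high glycolysis with lactate release. The factors HIF1A and EPAS1 induce many of these genes when oxygen is low.

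The libraries held 19643093 to 22809577 expected counts, and 16737 genes had enough counts to be tested, all 36 of the described genes among them. Slc39a10 itself stood at 39.5, 72.5 and 79.8 CPM, the counts after TMM scaling of the libraries, in Zip10 cKO libraries 1 to 3, against 54.6, 70.4 and 66.2 CPM in Control libraries 1 to 3. That total is no check of the genotype, since it also counts reads of exons that a deletion may leave, so every direction is that of the libraries as labelled. Zip10 cKO 1 stood apart from the other 5 on the first axis of a multidimensional scaling plot, at 1.58 against -0.77 to 0.02. Summed TPM (a level per transcript length, scaled to one fixed sum in every library) of 10 smooth muscle markers was 7079 to 11110 in Zip10 cKO and 4189 to 8068 in Control, with 10 of 10 markers higher. The same sum over 10 stroma markers was 5959 to 7139 in Zip10 cKO and 4074 to 5414 in Control, and 7 of the 10 were higher. Over 10 epithelium markers it was 599 to 840 in Zip10 cKO and 691 to 1019 in Control, with 8 of 10 lower. Of 10 macrophage markers 10 were higher, with sums of 466 to 1043 TPM in Zip10 cKO and 428 to 584 TPM in Control. The sums over 10 lymphocyte and NK cell markers, of which 8 were tested and 7 higher, did not overlap, at 69.4 to 98.3 TPM in Zip10 cKO and 36.3 to 54.9 TPM in Control. Nor did those over red blood cell markers, with 5 of 5 tested higher, at 637 to 779 TPM in Zip10 cKO and 358 to 629 TPM in Control. Of 10 endothelium markers 9 were lower, with sums of 499 to 553 TPM in Zip10 cKO and 483 to 629 TPM in Control. None of the 30 muscle, stroma and epithelium markers was at 0, so muscle, stroma and epithelium were all sampled. The sample labels call the tissue uterus and the design text calls it endometrium, so how much of the muscle layer was taken is not known. In such bulk RNA fewer cells of a type and less RNA per cell cannot be told apart.

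Glycolytic enzymes led the levels in both groups. Gapdh, which oxidizes glyceraldehyde 3-phosphate, was the highest gene at 1468, 1198 and 1068 TPM in Zip10 cKO 1 to 3 and 1125, 1075 and 1485 TPM in Control 1 to 3. It had high and low libraries in both groups. Next by mean TPM over all 6 libraries were Aldoa at 507, Ldha at 466 and Pkm at 363, each overlapping its neighbour in that order. Gpi1, Tpi1, Eno1 and Pgam1 followed between 195 and 227 TPM, and the ranges of these 4 over libraries overlapped as well. Of the 36 genes 13 averaged at least 100 TPM and 5 averaged under 10 TPM. The lowest was Pdk4, a pyruvate dehydrogenase kinase, at 0.878 TPM. The 36 genes together took 0.529%, 0.479% and 0.420% of all TPM in Zip10 cKO 1 to 3 and 0.464%, 0.449% and 0.509% in Control 1 to 3, so the groups overlapped. The plot of levels by library shows that the spread between genes was far wider than that between libraries.

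**Figure D1:**
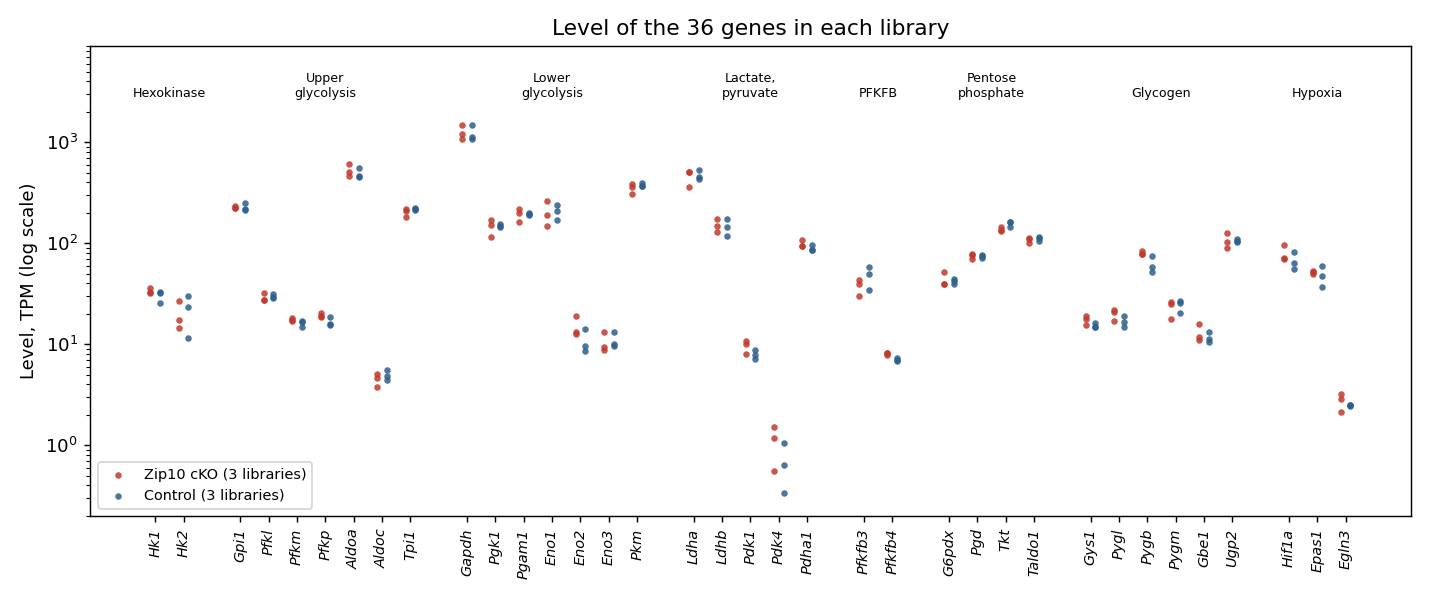
Level of each gene in TPM (log axis) in the 3 Zip10 cKO libraries and, to their right, the 3 Control libraries, 1 point a library, with genes ordered by role. Gapdh leads at over 1000 TPM in all 6 libraries, Pdk4 is lowest, and for most genes the points of the groups lie over the same range.

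Several of these genes are textbook targets of HIF, whose core binding letters are ACGTG or GCGTG. RefSeq promoter windows of 300 bases (250 before and 50 after the start; build GRCm38.p6) were given for 35 of the 36 genes, all but Epas1, and held 50 starts. ACGTG, read on both strands, was in 42.0% of these windows, against 24.4% of the windows of all genes tested and 19.6% of all windows. GCGTG was in 58.0% of them, against 47.6% of the windows of genes tested and 32.4% of all windows, and 30 of the 35 genes held at least 1 of the 2 motifs. By window, either motif was in 76.0%, against 59.3% of the windows of genes tested and 43.8% of all windows. The share by gene was not computed for other genes. Windows of the same gene can overlap and count a site again, as for Aldoa and Eno1. A match is only a run of letters and no binding was measured. Both motifs hold the pair CG, and the windows compared were not matched for base content. The stretches below are shown for Ldha and Pgk1, long used as HIF targets, and for Pfkfb3 and Pygb, the genes with the lowest p in each direction apart from Tkt. Capitals mark ACGTG or its reverse complement CACGT. The palindrome CACGTG holds both, overlapping, and is also the E-box read by MYC and the USF factors.
Ldha, chr7:46845644-46845783, plus strand: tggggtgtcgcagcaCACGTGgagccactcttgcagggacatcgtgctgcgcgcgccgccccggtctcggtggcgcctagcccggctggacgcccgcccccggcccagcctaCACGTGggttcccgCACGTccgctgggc
Pgk1, chrX:106186935-106186994, plus strand: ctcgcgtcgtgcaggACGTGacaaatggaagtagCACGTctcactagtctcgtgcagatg
Pfkfb3, chr2:11502121-11502180, minus strand: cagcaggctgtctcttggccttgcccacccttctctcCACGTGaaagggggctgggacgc
Pfkfb3, other start, chr2:11553960-11554019, minus strand: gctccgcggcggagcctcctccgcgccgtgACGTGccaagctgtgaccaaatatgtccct
Pygb, chr2:150786611-150786670, plus strand: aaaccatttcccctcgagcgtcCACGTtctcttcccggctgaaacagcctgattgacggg
The Ldha stretch held the core 5 times, the Pgk1 and first Pfkfb3 stretches 2 times each, and the second Pfkfb3 and the Pygb stretches once each.

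The comparison of Zip10 cKO with Control asked whether any of these genes differed between the groups. By the quasi-likelihood test of edgeR at an adjusted p under 0.05, 0 of the 36 were called, as were 0 of all 16737 genes (0%). The smallest adjusted p among the 36 was 0.747. DESeq2 also called none of the 36, though it called 37 genes in all. At an unadjusted p under 0.05 there was 1 of the 36, Pygb, where 6.46% of all genes tested met that mark, 4.48% as higher in Zip10 cKO, like Pygb, and 1.98% as lower. In 5 of the 36 the libraries of the groups did not overlap, against 12.7% of all genes tested: Pygb and Pygl were higher in Zip10 cKO (6.93% of all genes), and Tpi1, Tkt and Taldo1 were lower (5.78% of all genes). The count of 5 is near that background share. On deposited TPM in place of CPM only 2 of the 36 did not overlap, Pygb and Pfkfb4, against 12.9% of all genes tested on that scale. The 36 split into 18 with a fold change above 1 (49.4% of all genes) and 18 below 1 (50.6% of all genes), and the median log2 fold change was -0.001 against -0.002 over all genes. In the plot of changes they ran between a log2 fold change of -0.43 for Pfkfb3 and 0.61 for Pdk4. For 30 of the 36, the 95% interval of the fold lay within a 1.5-fold change in either direction, and for 35 it held 1. Between the highest and lowest of the 6 libraries the median ratio of CPM was 1.35.

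**Figure D2:**
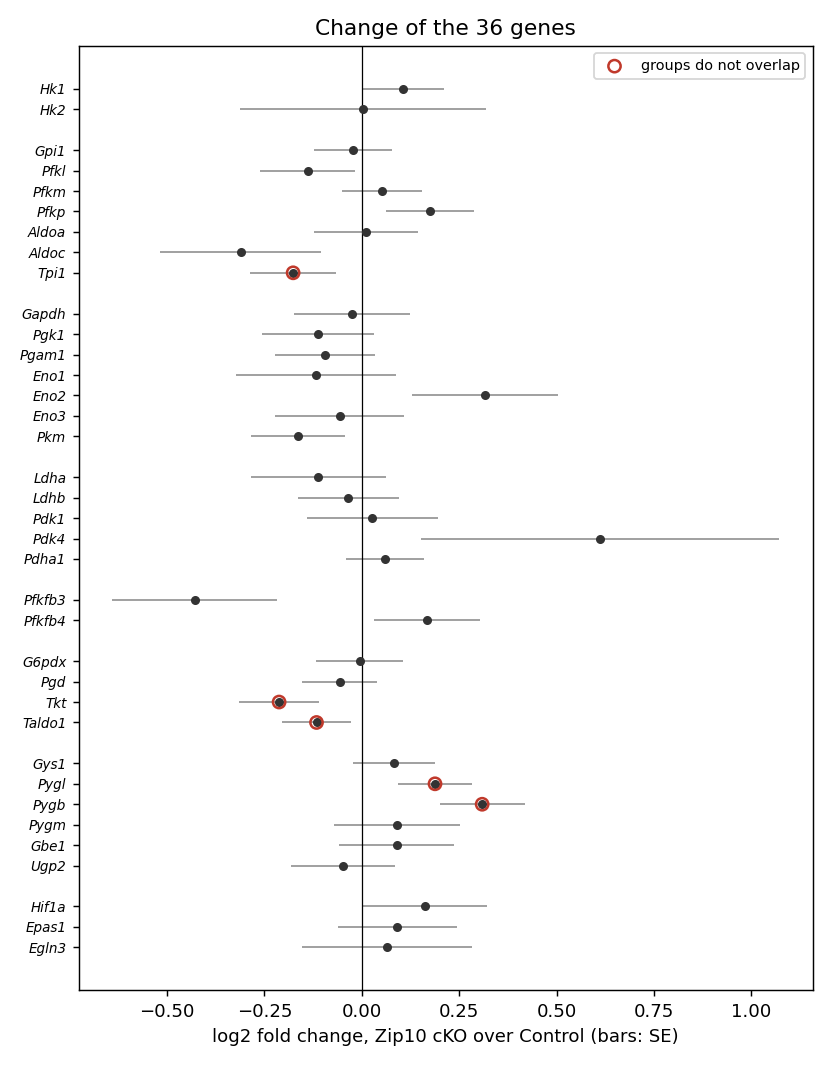
Log2 fold change of Zip10 cKO over Control for each of the 36 genes (points) with its SE (bars, n = 3 libraries each), ordered by role from hexokinases at the top to hypoxia genes at the bottom. The rings mark the 5 genes whose libraries do not overlap, and 21 of the 36 points lie within 1 SE of 0.

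The one gene of the 36 with an unadjusted p under 0.05 belongs to glycogen breakdown. Pygb, the brain form of glycogen phosphorylase, which releases glucose 1-phosphate from glycogen, stood at 201, 209 and 203 CPM in Zip10 cKO 1 to 3 and at 150, 158 and 186 CPM in Control 1 to 3. Every Zip10 cKO library lay above every Control library. The means were 204 ± 4.09 CPM in Zip10 cKO and 165 ± 18.9 CPM in Control (SD, n = 3 each), a fold of 1.24 with a 95% interval from 1.04 to 1.47. This gave an edgeR p of 0.0208 before and 0.747 after adjustment. Without Zip10 cKO 1, the library that stood apart, the log2 fold change of Pygb was 0.32 with an unadjusted edgeR p of 0.0351, against 0.31 with all libraries. Leaving out Zip10 cKO 2, Control 1 or Control 2 brought the unadjusted p to 0.0638, 0.0693 or 0.0686. Pygl, the liver form of the same enzyme, stood at 36.4, 34.9 and 37.7 CPM in Zip10 cKO and 32.3, 32.3 and 31.0 CPM in Control. Its groups did not overlap either, with a log2 fold change of 0.19 ± 0.10 (SE) and an edgeR p of 0.0821 before and 0.747 after adjustment. Pygm, the muscle form, overlapped at 31.3 to 44.1 CPM in Zip10 cKO and 31.4 to 42.5 CPM in Control. On the building side, Gys1, the muscle and general form of glycogen synthase, averaged 41.5 ± 4.07 CPM in Zip10 cKO and 39.1 ± 1.08 CPM in Control. Gbe1, which adds the branches, averaged 26.6 ± 4.72 CPM in Zip10 cKO and 25.0 ± 1.87 CPM in Control, and Ugp2, which makes the UDP-glucose that synthase uses, 171 ± 30.1 CPM in Zip10 cKO and 177 ± 6.81 CPM in Control (SD, n = 3 each). Of the 6 glycogen genes, 5 had a fold change above 1 and none passed the adjusted threshold. The smooth muscle marker sum was 11110, 7079 and 7509 TPM in Zip10 cKO 1 to 3 and 4390, 4189 and 8068 TPM in Control 1 to 3. The part of muscle, stroma, epithelium and the other cell types above in the Pygb difference was not tested.

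**Figure D3:**
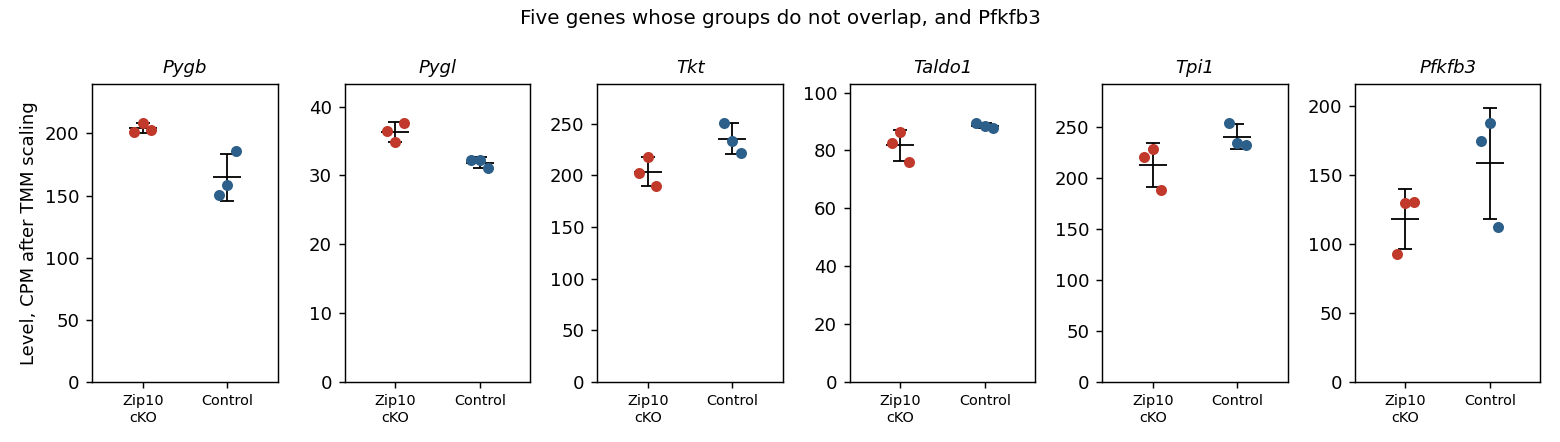
CPM after TMM scaling in each Zip10 cKO library (left) and Control library (right) for the 5 genes whose groups do not overlap and for Pfkfb3; horizontal lines and bars give mean and SD (n = 3 each) and axes start at 0. Pygb and Pygl lie higher in Zip10 cKO, while Tkt, Taldo1 and Tpi1 lie lower. For these last genes the gap between the nearest libraries of the groups is smaller than the SD of Zip10 cKO.

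In CPM, all 4 pentose phosphate enzymes were at or below their Control mean. The larger differences were in the non-oxidative arm, which interconverts sugar phosphates, though that of Taldo1 depended on the handling of gene length. Tkt, transketolase, stood at 202, 218 and 190 CPM in Zip10 cKO 1 to 3 and at 251, 233 and 222 CPM in Control 1 to 3. The highest Zip10 cKO library lay just under the lowest Control library. The log2 fold change was -0.21 ± 0.10 (SE), with an edgeR p of 0.0720 before and 0.747 after adjustment. Taldo1, transaldolase, stood at 82.6, 86.5 and 76.2 CPM in Zip10 cKO and 89.7, 88.3 and 87.8 CPM in Control, a log2 fold change of -0.12 ± 0.09 (SE; adjusted p in edgeR 0.785). Its Control libraries were tightly grouped and its Zip10 cKO libraries spread below them. The oxidative arm, which makes NADPH, showed overlap. G6pdx, its entry enzyme, averaged 80.2 ± 10.9 CPM in Zip10 cKO and 80.5 ± 3.16 CPM in Control, and Pgd, its other dehydrogenase, 113 ± 8.24 CPM in Zip10 cKO and 118 ± 2.50 CPM in Control (SD, n = 3 each). Zip10 cKO 3 was the lowest library for all 4 genes. Without it the log2 fold change of Tkt was -0.16 and that of Taldo1 was -0.07. With all libraries and the trend of change over gene length removed, Tkt was at -0.19 and Taldo1 at -0.04. On that setting Pgd was at -0.04 and G6pdx at -0.01.

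At glucose entry and the first steps of glycolysis, 8 of 9 genes overlapped between groups. Hk1, a hexokinase that traps glucose as its 6-phosphate, stood at 105, 102 and 96.0 CPM in Zip10 cKO and 83.7, 98.0 and 100.2 CPM in Control. Hk2, the inducible form, was among the most variable, at 44.2, 63.8 and 36.2 CPM in Zip10 cKO and 62.4, 54.3 and 27.3 CPM in Control. Each group had both high and low Hk2 libraries, and the log2 fold change was 0.00 ± 0.32 (SE). Gpi1, which isomerizes glucose 6-phosphate, was nearly equal across the Zip10 cKO libraries, at 304, 305 and 304 CPM in Zip10 cKO against 298, 294 and 336 CPM in Control. The phosphofructokinases, which commit sugar to glycolysis, had log2 fold changes of -0.14 for Pfkl, 0.05 for Pfkm and 0.17 for Pfkp, and all 3 overlapped. Aldoa, the main aldolase, averaged 492 ± 62.3 CPM in Zip10 cKO and 489 ± 53.2 CPM in Control, and the scarce Aldoc 5.37 ± 1.05 CPM in Zip10 cKO and 6.66 ± 0.67 CPM in Control (SD, n = 3 each). Tpi1, which interconverts the triose phosphates, was the one gene of these steps without overlap, at 221, 229 and 188 CPM in Zip10 cKO against 255, 234 and 232 CPM in Control. The log2 fold change of Tpi1 was -0.18 ± 0.11 (SE; adjusted p in edgeR 0.760), and -0.10 without Zip10 cKO 3.

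From Gapdh to Pkm, 6 of 7 genes had a fold change below 1, all but Pkm by less than its SE. Pgk1, which makes the first ATP of the pathway, stood at 201, 191 and 143 CPM in Zip10 cKO and 212, 179 and 188 CPM in Control. Pgam1, a phosphoglycerate mutase, stood at 251, 245 and 192 CPM in Zip10 cKO and 264, 237 and 234 CPM in Control. Pkm, pyruvate kinase, stood at 573, 649 and 502 CPM in Zip10 cKO and 668, 609 and 655 CPM in Control (log2 fold change -0.16 ± 0.12 SE). In these 3 genes the lowest library was Zip10 cKO 3 and the highest was Control 1. Over the 10 main enzymes from Gpi1 to Ldha (Pfkl standing for its family), Zip10 cKO 3 was lowest in 8 and Control 1 highest in 6. Gapdh had a log2 fold change of -0.03 ± 0.15 and Eno3, the muscle enolase, one of -0.06 ± 0.17 (SE). Eno2, the neuronal enolase, was the exception upwards, at 19.2, 17.2 and 25.0 CPM in Zip10 cKO against 16.5, 13.5 and 19.2 CPM in Control (log2 fold change 0.32 ± 0.19 SE; adjusted p in edgeR 0.760). Without Zip10 cKO 3 the log2 fold change of Eno2 was 0.15, and without Control 2 it was 0.19. Summed TPM of 10 neuron and Schwann cell markers was 14.6 to 18.1 in Zip10 cKO and 13.9 to 14.6 in Control, with 5 of them tested and 3 higher. Their part in the Eno2 values was not tested.

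At the fate of pyruvate, Ldha, the muscle-type subunit of lactate dehydrogenase, stood at 514, 549 and 372 CPM in Zip10 cKO and 610, 482 and 458 CPM in Control. The groups overlapped, with a log2 fold change of -0.11 ± 0.17 (SE). Ldhb, the heart-type subunit, averaged 86.8 ± 9.57 CPM in Zip10 cKO and 88.9 ± 12.5 CPM in Control, and Pdha1, a catalytic subunit of pyruvate dehydrogenase, 194 ± 13.1 CPM in Zip10 cKO and 186 ± 10.8 CPM in Control (SD, n = 3 each). Of the kinases that switch pyruvate dehydrogenase off, Pdk1 averaged 22.3 ± 4.39 CPM in Zip10 cKO and 21.9 ± 2.18 CPM in Control. Pdk4 stood at 3.14, 1.43 and 2.93 CPM in Zip10 cKO and 0.92, 1.28 and 2.69 CPM in Control. It had the largest fold change of the 36, 1.53, with a 95% interval from 0.739 to 3.16, and it rests on 21 to 66 counts a library (adjusted p in edgeR 0.784). Its log2 fold change of 0.61 was 0.32 without Control 1 and 1.17 without Control 3, and without Control 1 that of Pfkfb3, -0.36, was larger in size.

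The bifunctional PFKFB enzymes set fructose 2,6-bisphosphate, the strongest activator of phosphofructokinase. Pfkfb3, the form with the highest kinase activity, stood at 92.6, 130 and 131 CPM in Zip10 cKO and 175, 188 and 113 CPM in Control. Control 3 fell inside the Zip10 cKO range and the other 2 Control libraries lay above it. The fold was 0.743 with a 95% interval from 0.531 to 1.04, with an edgeR p of 0.0762 before and 0.747 after adjustment. The log2 fold change of -0.43 with all libraries was -0.63 without Control 3 (unadjusted edgeR p 0.00569, adjusted p 0.573). It was -0.28 without Zip10 cKO 1 (unadjusted edgeR p 0.206) and -0.29 without Control 2 (unadjusted edgeR p 0.244). With all libraries the unadjusted p was 0.0387 in DESeq2 and 0.0456 in edgeR with the length trend removed, so the side of 0.05 changes with the library left out and with the method. Pfkfb4 stood at 15.97, 16.3 and 14.5 CPM in Zip10 cKO and 15.03, 12.6 and 14.1 CPM in Control.

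The hypoxia genes were near their Control level. Hif1a stood at 303, 240 and 221 CPM in Zip10 cKO and 203, 270 and 210 CPM in Control (log2 fold change 0.16 ± 0.16 SE). Epas1, the other HIF alpha subunit, averaged 196 ± 20.3 CPM in Zip10 cKO and 184 ± 35.8 CPM in Control, and Egln3, a prolyl hydroxylase that marks these subunits for destruction and is itself a HIF target, 5.11 ± 1.08 CPM in Zip10 cKO and 4.88 ± 0.28 CPM in Control (SD, n = 3 each).

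Isozyme use was compared as each gene's share of the TPM of its family, in 11 families with at least 2 isozymes at 1 TPM. Aldoa made up 99.1 ± 0.22% of aldolase TPM in Zip10 cKO and 99.0 ± 0.08% in Control. Pgam1 made up 99.5 ± 0.03% of its family in Zip10 cKO and 99.4 ± 0.20% in Control, and Eno1 88.1 ± 3.36% of the enolases in Zip10 cKO and 90.4 ± 0.87% in Control. Pkm and Gys1 had practically no partner: the liver form Pklr averaged 0.09 TPM over the 6 libraries and the liver form Gys2 was listed at 0 in all 6. In these steps nearly all transcripts came from a single gene, apart from enolase, whose shares leave out Eno1b, a near-identical copy of Eno1 described below. Eno1b was listed at 38.4 and 34.7 TPM in Zip10 cKO 2 and 3 and at 41.1 TPM in Control 2. In Zip10 cKO 1, Control 1 and Control 3 it was at most 2.06 TPM. The Eno1 share therefore depends on how reads were split between Eno1 and Eno1b. Lactate dehydrogenase was mixed, with Ldha at 79.7%, 74.8% and 71.1% in Zip10 cKO and 75.5%, 79.3% and 74.8% in Control, the rest being nearly all Ldhb. Phosphofructokinase was spread over all 3 genes, with Pfkl at 44.0 ± 2.26% in Zip10 cKO and 47.6 ± 2.66% in Control, Pfkp at 29.2 ± 2.33% in Zip10 cKO and 26.6 ± 1.89% in Control, and Pfkm at 26.7 ± 0.64% in Zip10 cKO and 25.9 ± 1.51% in Control. Hexokinase was the least fixed mixture: Hk1 took 63.7%, 53.8% and 65.2% in Zip10 cKO and 44.5%, 56.9% and 70.1% in Control, with Hk2 filling most of the rest. In Control 1 Hk2 was the larger in TPM at 51.7%, but not in expected counts, at 1419 against 1905 for Hk1. The RSEM length of Hk2 was shortest in that library.

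Glycogen phosphorylase was the only one of the 11 families in which the share of the leading gene did not overlap between groups. With group labels shuffled, 3 against 3 libraries separate with a probability of 0.1 in a family, so 1 of 11 is near that share. Pygb made up 67.7%, 64.9% and 62.6% of phosphorylase TPM in Zip10 cKO and 59.8%, 57.9% and 62.0% in Control. The lowest Zip10 cKO library exceeded the highest Control library by less than 1 percentage point. The difference of the means was 5.18 points, and an exact two-sided permutation test gave p = 0.1, the smallest that 3 against 3 allows, or 0.825 after Benjamini-Hochberg adjustment over the 11 families. Pygm, the muscle form, held 14.4%, 20.99% and 20.7% in Zip10 cKO and 23.3%, 25.6% and 22.4% in Control, also without overlap in TPM. Its CPM did overlap, at a log2 fold change of 0.09, and its RSEM length was longer in Zip10 cKO. Shares within a family are not independent of one another. Counted in expected counts, with no division by length, the Pygb difference was 2.51 points. Pfkfb3 made up 66.0 ± 3.73% of PFKFB TPM in Zip10 cKO and 73.4 ± 6.46% in Control (exact permutation p = 0.3). Among the pyruvate dehydrogenase kinases the leading gene was Pdk3, outside the 36, at 47.0 ± 5.58% in Zip10 cKO and 52.0 ± 4.04% in Control (exact permutation p = 0.3). The share of Pdk1 did not overlap, at 14.6%, 17.5% and 18.3% in Zip10 cKO and 12.98%, 12.1% and 14.4% in Control, in a gene whose RSEM length also differed. Neither Pdk1 nor Pygm leads its family, so these shares lie outside the 11 compared and were not tested. The probability of 0.1 for a separation holds for each such share too. Hif1a made up 59.3 ± 4.39% of HIF alpha TPM in Zip10 cKO and 58.0 ± 1.75% in Control, and Egln3 only 2.72 ± 0.54% of the prolyl hydroxylases in Zip10 cKO and 2.31 ± 0.27% in Control (all SD, n = 3 each).

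**Figure D4:**
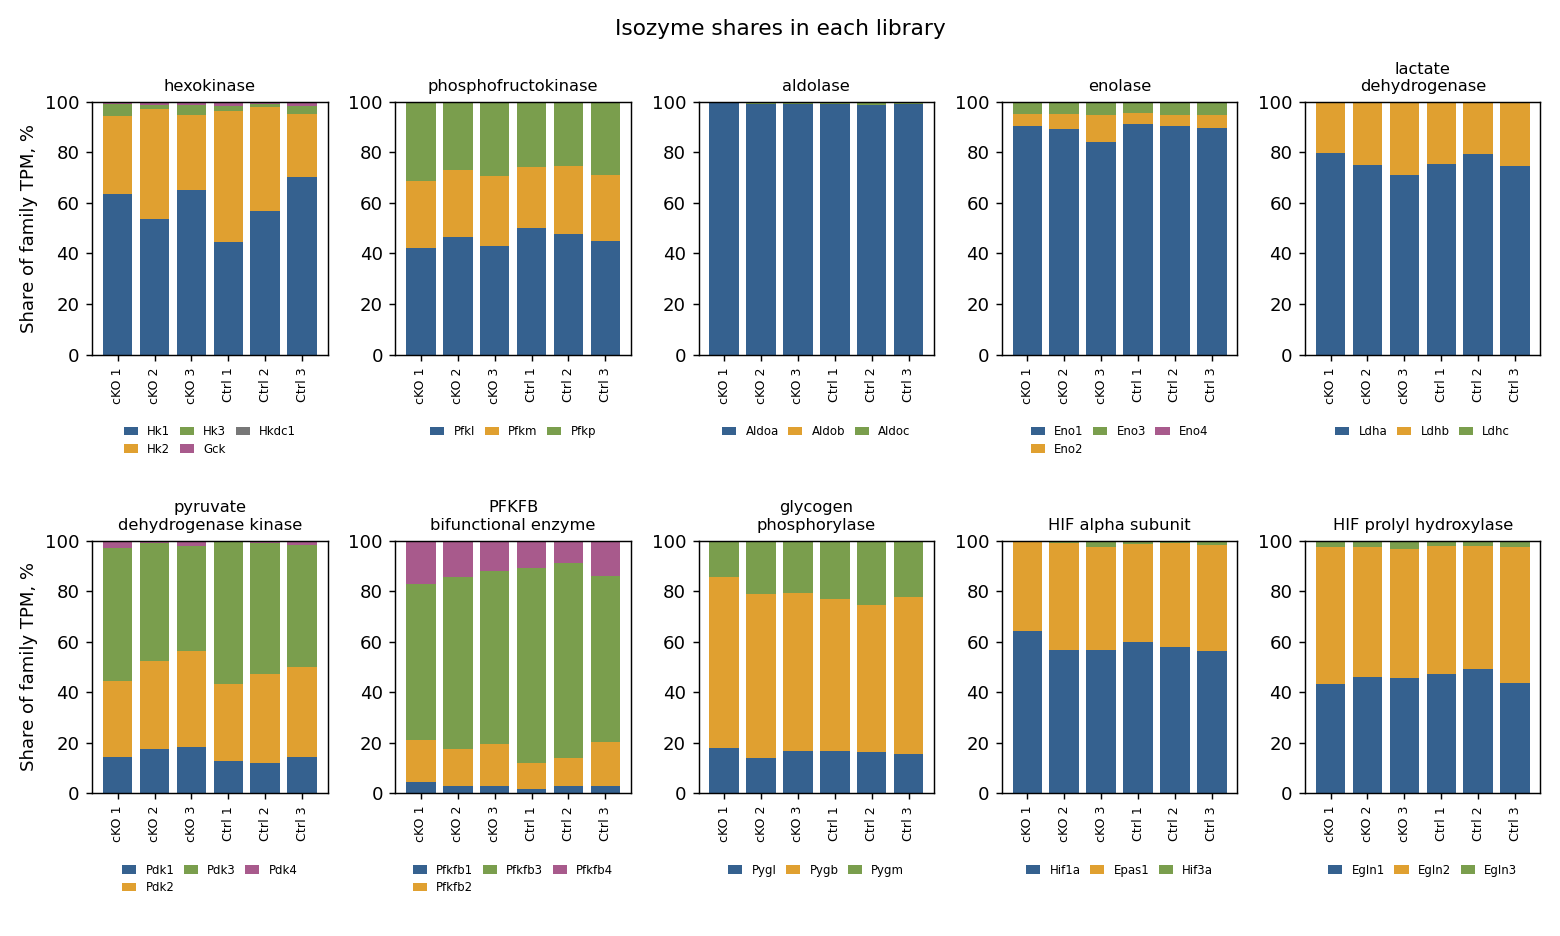
Share of each isozyme in the TPM of its family, stacked to 100%, with the 3 Zip10 cKO libraries left of the 3 Control libraries in every panel. Aldolase is nearly all Aldoa and enolase mostly Eno1, phosphofructokinase is divided over 3 genes, and the Hk1 share moves between 44.5% and 70.1% from library to library. Eno1b is not counted among the enolases.

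Isoform use within a gene can be read from the gene length that RSEM wrote for each library, a mean of transcript lengths weighted by their estimated abundance. It varied for 35 of the 36 genes, by a median ratio of 1.06 between the longest and shortest library, against 1.09 over all tested genes whose length varies. In 6 of the 35 the groups did not overlap, against 12.8% of those genes. Hk2 was longer in Zip10 cKO at 3628, 3235 and 3479 bases, against 2696, 3208 and 3223 bases in Control, and Control 1, the shortest, was also the library with the highest Hk2 share. Pygm was longer too, at 2606, 2432 and 2328 bases in Zip10 cKO against 2056, 2029 and 2213 bases in Control. Pdk1 was shorter, at 3153, 3324 and 3263 bases in Zip10 cKO against 3853, 3787 and 3446 bases in Control. A shorter length raises TPM for the same count: Pdk1 averaged 9.61 TPM in Zip10 cKO and 7.90 TPM in Control while its CPM differed by under 1. The phosphorylase shares above are in TPM and so carry the length of Pygm too. The other 3, Aldoa, Pgd and Gys1, were shorter in Zip10 cKO with a longest-to-shortest ratio of 1.02, 1.02 and 1.07. Which transcripts differed was not analysed here.

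Reads of 10 of the 36 genes can be split with near-identical copies elsewhere in the genome, mostly pseudogenes, and for Eno1 the reads given to copies differed widely between libraries. Eno1b shares 99.5% of 1736 aligned bases with Eno1. It was given 7.2, 1010 and 815 expected counts in Zip10 cKO 1 to 3 and 25.3, 989 and 52.6 in Control 1 to 3. High values came from Zip10 cKO 2, Zip10 cKO 3 and Control 2, and low values from the other 3 libraries, so both groups held both. Eno1 was lowest in the 3 libraries in which Eno1b was high, at 268, 200 and 234 CPM, against 341 CPM in Zip10 cKO 1 and 312 and 331 CPM in Control 1 and 3. Reads cannot be assigned between the 2 genes with certainty from these tables. With Eno1 and its copies added, the log2 fold change was -0.05 ± 0.15, against -0.12 ± 0.21 for Eno1 alone (SE). For every other gene of the 10 the copies took at most 2.35% of the summed counts in any library, Gapdh with its many pseudogenes included. Pfkp, Pdha1, Pkm and Pfkm each share a stretch with a gene that overlaps or adjoins them, so reads of that stretch can be split as well. The partner gene held 1620.5 to 1977.8 expected counts a library for Pfkp and 420.9 to 524.2 for Pkm. For Pdha1 it held 25.9 to 68.7 and for Pfkm 2.0 to 6.1, so the uncertainty differs between them.

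**Figure D5:**
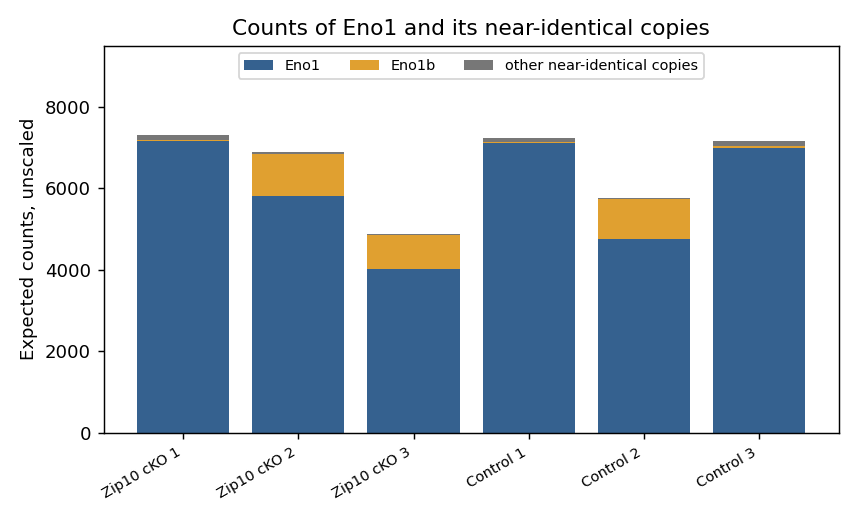
Expected counts, unscaled, of Eno1, Eno1b and the other near-identical copies in the 3 Zip10 cKO libraries and then the 3 Control libraries. Eno1b holds 815 to 1010 counts in Zip10 cKO 2, Zip10 cKO 3 and Control 2, and at most 52.6 in the other 3 libraries.

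Further genes of the same pathways, listed by name, gave the same picture. Of 100 such genes 83 were tested; 40 had a fold change above 1 and 43 below 1, none passed the adjusted threshold in edgeR, and 6 had an unadjusted p under 0.05 in edgeR, near the 6.46% of all genes tested. In 6 the groups did not overlap, 3 higher and 3 lower in Zip10 cKO, below the 12.7% of all genes tested. Of the 20 other glycogen genes tested, 15 were higher, against 49.4% of all genes, with a median log2 fold change of 0.10. Over all genes the median ran from -0.11 in the shortest to 0.11 in the longest of 5 length classes. The part of length in the list medians was not tested. Gaa, the lysosomal enzyme that digests glycogen, stood at 245, 160 and 170 CPM in Zip10 cKO and 137, 139 and 146 CPM in Control (fold 1.36, edgeR p of 0.0234 before and 0.747 after adjustment). All Zip10 cKO libraries lay above all Control libraries for Gaa. Phkg2, a catalytic subunit of phosphorylase kinase, averaged 32.6 ± 5.25 CPM in Zip10 cKO and 38.8 ± 2.64 CPM in Control (SD, n = 3 each).

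Around pyruvate dehydrogenase 9 of 11 genes were lower, against 50.6% of all genes. The median log2 fold change of the list was -0.11, against -0.002 over all genes, and the part of length in it was not tested. Pdk3 stood at 39.5, 40.6 and 35.3 CPM in Zip10 cKO and 52.1, 43.8 and 42.9 CPM in Control (fold 0.832, edgeR p of 0.0459 before and 0.747 after adjustment). Pdhb, a catalytic subunit of the complex, stood at 74.3, 78.2 and 70.6 CPM in Zip10 cKO and 93.3, 79.3 and 81.1 CPM in Control. Pdpr, a regulator of the phosphatase that reactivates the complex, went the other way, at 27.8, 25.4 and 27.8 CPM in Zip10 cKO and 14.5, 21.9 and 20.1 CPM in Control (fold 1.44, edgeR p of 0.0116 before and 0.747 after adjustment). These 3 genes did not overlap between groups. H6pd, which runs the oxidative pentose phosphate steps in the endoplasmic reticulum, averaged 128 ± 32.7 CPM in Zip10 cKO and 92.5 ± 10.4 CPM in Control (SD, n = 3 each), and its groups overlapped. Of the 8 other pentose phosphate genes tested 6 were lower, against 50.6% of all genes. Pgls and Rbks were among those with the smallest p, at log2 fold changes of -0.17 ± 0.12 and -0.47 ± 0.32 (SE). Rbks was scarce, at a mean of 1.18 CPM in Zip10 cKO and 1.64 CPM in Control. Pcx, pyruvate carboxylase, averaged 147 ± 26.2 CPM in Zip10 cKO and 195 ± 30.01 CPM in Control (SD, n = 3 each), a fold of 0.754 (edgeR p of 0.0353 before and 0.747 after adjustment). For Pck1 and G6pc3, enzymes of glucose output, the log2 fold changes were -0.58 ± 0.36 and -0.08 ± 0.10 (SE). Pck1 is also 1 of 10 adipocyte markers, of which 5 were tested and 4 lower. Their summed TPM was 24.0, 26.2 and 50.6 in Zip10 cKO 1 to 3 and 24.8, 26.2 and 75.6 in Control 1 to 3. Pck1 was highest in Control 3, at 16.5 CPM, and next in Zip10 cKO 3, at 11.3 CPM. The part of adipocytes in the Pck1 values was not tested.

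In the rest of glycolysis 5 of 13 genes were higher and 8 lower. Galm, which turns over the anomers of sugars, stood at 21.3, 34.6 and 19.3 CPM in Zip10 cKO and 54.7, 52.9 and 22.8 CPM in Control, the widest fold of that list at 0.578 (edgeR p of 0.0556 before and 0.747 after adjustment). Control 3 lay within the Zip10 cKO range, as it did for Pfkfb3. Ldhd and Tigar had log2 fold changes of -0.21 ± 0.21 and -0.15 ± 0.17 (SE). Of 19 further targets of hypoxia 11 were higher and 8 lower, none at an unadjusted p under 0.05 and none without overlap. Stc2 averaged 20.6 ± 2.29 CPM in Zip10 cKO and 15.7 ± 3.38 CPM in Control, Fam162a 46.3 ± 7.63 CPM in Zip10 cKO and 54.5 ± 8.45 CPM in Control (SD, n = 3 each). Car12 was at 526, 109 and 223 CPM in Zip10 cKO and 74.9, 111 and 254 CPM in Control, where the highest value is that of Zip10 cKO 1. The 8 other regulators of the pathway split 4 and 4. Among them Arnt, the shared partner of the HIF alpha subunits, Egln1 and Egln2 had log2 fold changes of 0.16, -0.23 and -0.13.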

How the data were processed

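Poly(A) RNA of 3 Zip10 cKO and 3 Control uterus libraries was sequenced after random priming, per the labels' protocols. RSEM 1.3.3, STAR 2.7.10a and fastp 0.23.2 are listed with edgeR 3.38.4, R 4.2.1 and the build GRCm39 in the submitters' processing notes. Strand setting and annotation release: not given in the sources used here. Each library's table, as deposited, is an RSEM gene table with expected counts (reads shared by genes are split), TPM (per effective length, keeping no depth) and an abundance-weighted gene length, per the file headers.

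Of 56748 gene IDs, 52073 (91.8%) matched GENCODE M21 names. Expected counts were rounded, filtered with filterByExpr (minimum count 10, total 15), scaled by TMM and tested with edgeR 4.0.16's quasi-likelihood test (R 4.3.3); p-values were adjusted by Benjamini-Hochberg across 16737 genes; SEs come from the F statistic. The fit was tested on simulated counts. Isozyme shares of deposited TPM used exact two-sided permutation tests. Near-identical copies are M21 transcripts with at least 95% identity over 300 bases (BLAST+ 2.17.0). Figures used matplotlib 3.10.9. The members and lists were chosen with earlier results of these data known. Values are given in full for members at an unadjusted p under 0.05 or without overlap and for leading isozymes, and for up to 3 genes with the smallest p in each further list, of which 1 is not reported here. Alternatives were DESeq2 1.42.0, the likelihood ratio test, limma-voom (limma 3.58.1), other scalings and filters, limma-trend on log2(TPM + 1) and log2(TPM + 0.1), a loess length correction (span 0.5), the replicate block and leaving out each library; adding copies to their genes was chosen after seeing the data.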

Additional observations from a re-analysis of the deposited data

How the results depend on the processing

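None of the 36 genes passed the adjusted threshold under any of the 18 alternatives, and the smallest adjusted p any of them reached was 0.562. No log2 fold change larger than its SE changed sign, while 0 to 8 of the smaller ones did, by setting. Over all genes the count of calls was 37 with DESeq2 (29 higher in Zip10 cKO), 30 with the likelihood ratio test (25 higher), 15 with no filter on low counts (12 higher) and 0 to 2 when a library was left out, against 0 in the quasi-likelihood test; the cause was not tested. The count of the 36 at an unadjusted p under 0.05, 1 in that test, was 2 with DESeq2 (4.15% of all genes), 2 with upper quartile scaling (6.55%), 2 with the length trend removed (5.5%), 2 with the replicate block (8.09%), and 0 to 3 when a library was left out (3.96% to 8.97%). Pygb kept an unadjusted p under 0.05 in 15 of 18 alternatives, with a log2 fold change from 0.24 to 0.40 and an adjusted p from 0.569 to 0.989; the exceptions left out Zip10 cKO 2, Control 1 or Control 2. The count of genes without overlap, 5, was 2 on deposited TPM with either pseudocount (Pygb and Pfkfb4; 12.9% of all genes), and 6 to 11 when a library was left out, where fewer libraries overlap less and 19.7% to 26.9% of all genes did not overlap. With expected counts in place of TPM the Pygb share differed by 2.51 points, against 5.18 points. The median of all genes moved by at most 0.06 (log2, on TPM). Over all genes the log2 fold change ran with length, with medians from -0.11 to 0.11 between the shortest and longest of 5 equal length classes, and these 2 classes hold 4 each of the 36. Same-numbered libraries deviated with correlations of 0.092, 0.254 and 0.189. Zip10 cKO 2 and Zip10 cKO 3 each correlated best with the Control library of the same number, and Zip10 cKO 1 with Control 3 at 0.119. The labels name no pairs and no batch, so the main fit took none. Whether the numbers mark pairs or a shared batch was not tested. With the replicate block, too, none of the 36 passed the adjusted threshold. Depth limits Pdk4 most.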
